A study of Mus musculus with 112 samples.

Results

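The genes described here are 35 genes of the lysosome, chosen by name as soluble hydrolases and their helpers in the lysosomal lumen and as proteins of the lysosomal membrane, and all 35 were found among the 25209 genes of the count tables. They were followed in 112 RNA-seq libraries of mouse cells to ask whether the rise of Psap, the gene of the saposin precursor prosaposin, belongs to a wider change of the lysosome when LSD1 or its partners are lost. Psap itself was not counted as a member and is given in each comparison as the reference. Of the members, 6 were cathepsins, 2 a further protease and a thioesterase, 5 lipid or sphingolipid hydrolases, 11 glycan or glycogen hydrolases, 9 membrane proteins, channels or transporters, and 2 other luminal proteins. Choice was by name.

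Lysosomes are acidic organelles in which hydrolases take apart proteins, lipids, glycans and glycogen delivered by endocytosis and autophagy. Saposins, cut from prosaposin inside the lysosome, present sphingolipids to enzymes such as galactosylceramidase (Galc), arylsulfatase A (Arsa), acid ceramidase (Asah1) and the beta-galactosidase Glb1, and they act beside the hexosaminidase subunit Hexa and the sialidase Neu1 in the same breakdown route. Many lysosomal genes share an E-box-like promoter element bound by the MiT/TFE factors, of which Tfeb is the best known, and can be induced together through it. LSD1 (gene Kdm1a) is a histone demethylase that works with the CoREST scaffolds RCOR1 and RCOR2, MLL4 (gene Kmt2d) is a histone H3 lysine 4 methyltransferase of enhancers, and p300/CBP are histone acetyltransferases.

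All cells were V6.5 mouse embryonic stem cells (ESCs) or their derivatives, kept as ESCs in serum-free medium with 2i and LIF. Untreated ESCs comprised wild-type (WT, 11 libraries), LSD1 KO (6), LSD1 CI, whose endogenous LSD1 is catalytically inactive (4), RCOR2 KO (4), RCOR1 KO (4), RCOR1/2 DKO (4), MLL4 KO (2), MLL4/LSD1 DKO (4) and MLL4KO/LSD1CI (4). Untreated embryoid bodies (EBs), grown as hanging drops for 6 days, comprised WT (7), LSD1 KO (2), LSD1 CI (4), RCOR2 KO (2), RCOR1 KO (4) and RCOR1/2 DKO (4). By the study's methods, EB medium held serum and neither 2i nor LIF. The DOX experiment held LSD1 KO ESCs carrying a doxycycline-inducible LSD1 (LSD1Res), RCOR1/2 DKO ESCs carrying the same kind of tagged LSD1 transgene (DKO + LSD1), both with 4 libraries without and 4 with DOX, and LSD1 KO ESCs without the transgene, with 2 and 2. The p300/CBP inhibitor A485 was compared with its solvent DMSO in LSD1 KO ESCs (2 and 2) and EBs (2 and 2, with 2 WT EB libraries in DMSO). By the study, EBs received a lower dose of A485 than ESCs, so dose and cell state cannot be told apart between them. A485 was also tested after 4 days in serum and after 2 days as epiblast-like cells (EpiLCs), each with DMSO-treated WT, LSD1 KO and LSD1 CI cells and A485-treated LSD1 KO cells (2 each). By the study's methods the mutants were lines from independent clones, but the labels do not tie a library to its clone, so p-values measure the spread between libraries, which may be technical in part.

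Libraries held between 17.2 and 58.2 M counts (M, 1000000 counts). Kdm1a RNA was 3.43 to 6.85 CPM (counts scaled to a library total of 1000000) in LSD1 KO ESCs against 141 to 226 in WT ESCs. DOX raised it to 980 to 2253 CPM in LSD1Res and 1830 to 6038 in DKO + LSD1. By the study, LSD1 protein with DOX was nonetheless lower than in WT in LSD1Res and comparable to WT in DKO + LSD1. Without DOX, Kdm1a RNA was 10.8 to 38.1 CPM in LSD1Res against 6.54 to 7.95 in LSD1 KO of the same experiment. Rcor1 and Rcor2 were below 4 CPM in RCOR1/2 DKO ESCs. Rcor2 remained at 44.6 and 53.8 CPM in the libraries labelled RCOR2 KO EB against 121 to 153 in WT EBs, so those libraries did not show the loss seen in RCOR2 KO ESCs (0.674 to 4.46). Kmt2d RNA overlapped WT in MLL4KO/LSD1CI. WT libraries 1 to 3 and the 6 LSD1 KO ESC libraries had no counts on 101 genes of unplaced contigs where every other library had 4241 or more, so the ESC fits carried a term for this difference in alignment, and LSD1 KO was in effect compared with WT 1 to 3.

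At rest, the members spanned more than 3 orders of magnitude in level per length. In WT ESCs, Lamp1, the main glycoprotein of the lysosomal membrane, stood first at 170 ± 7.92 RPKM (SD, n = 11), followed by the aspartic protease Ctsd at 75.5 ± 12.1 RPKM and Asah1 at 65.3 ± 8.85 RPKM. Psap lay just below at 61 ± 9.58 RPKM, within the spread of its neighbours Ctsd, Asah1 and the tetraspanin Cd63 (56.8 ± 12.8 RPKM). The lowest members were Arsb (0.0817 ± 0.0421 RPKM), Ctsh (0.112 ± 0.113), Naglu (0.661 ± 0.254), Sgsh (0.665 ± 0.24), Lipa (1.42 ± 0.558) and the phagosomal metal transporter Slc11a1 (1.66 ± 0.561). Several of the largest fold changes described here fell on these low genes, and the most abundant member, Lamp1, was called in no comparison. Summed over all 35 members, levels in WT ESCs ran from 2055 to 2526 CPM, and LSD1 KO (2288 to 2415), LSD1 CI (2233 to 2387), RCOR2 KO (2184 to 2428), RCOR1 KO (2099 to 2366) and RCOR1/2 DKO ESCs (2334 to 2447) lay inside that range. MLL4 KO (2315 to 2802) and MLL4KO/LSD1CI (1949 to 2626) reached beyond it. MLL4/LSD1 DKO (1876 to 2177) reached below it, and LSD1 KO in DMSO (2610 to 2788) lay wholly above it. In serum the sum was 1335 to 1454 CPM in WT and 1539 to 1616 in LSD1 KO, both in DMSO. In EpiLCs these were 1235 to 1310 and 1559 to 1610. With A485, LSD1 KO had 1879 to 1966 in serum, 1997 to 2028 in EpiLCs and 2071 to 2416 in EBs (2496 to 2845 in DMSO). Untreated LSD1 KO EBs (2248 to 2261) and RCOR1/2 DKO EBs (2056 to 2262) lay below WT EBs (2288 to 2611). The sums were not tested.

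The element of the MiT/TFE factors has CACGTG at its core and TCACGTGA as its longer form. Both are their own reverse complement, so a match holds on both strands, and every TCACGTGA contains a CACGTG. RefSeq promoters on GRCm38.p6, taken from 250 bases before to 50 after each start site, were present for 31 members, 2 of which had 2 promoters. Ctsb, Ctsh, Npc1 and Asah1 had none. CACGTG was found in 11 of these 33 promoters (33.3%), against 2349 of 32851 promoters of all genes (7.15%), and TCACGTGA in 4 of 33 (12.1%) against 320 of 32851 (0.974%). The 11 promoters belonged to Ctsa, Cln3, Ctsd, Mcoln1, Lamp1, Glb1, Naglu, Gaa, Sgsh, Ctsl and Arsa, and the Psap promoter held neither form.

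Parts of 5 member promoters are shown because they set genes that were called beside genes that never were: Ctsd, Cln3 and Lamp1 were called in none of 31 comparisons, Ctsl rose and Arsa fell in LSD1 KO ESCs. Sequences run 5′ to 3′ on the strand of the gene, and capitals mark one CACGTG match each, with further matches in the same window left in lower case. The Ctsd window is chr7:142387880-142387965 on the minus strand with the match starting 98 bases before the start site, the Cln3 window chr7:126583312-126583397 on the minus strand (121 bases before), and the Lamp1 window chr8:13159106-13159160 on the plus strand (15 bases before). The Ctsl window is chr13:64370711-64370770 on the minus strand (236 bases before) and the Arsa window chr15:89477425-89477480 on the minus strand (16 bases before), all on GRCm38.p6.
Ctsd: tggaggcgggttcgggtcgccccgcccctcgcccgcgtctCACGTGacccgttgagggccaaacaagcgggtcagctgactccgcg
Cln3: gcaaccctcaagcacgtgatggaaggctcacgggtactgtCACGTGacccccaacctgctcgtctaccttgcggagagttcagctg
Lamp1: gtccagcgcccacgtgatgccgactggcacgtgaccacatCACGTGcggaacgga
Ctsl: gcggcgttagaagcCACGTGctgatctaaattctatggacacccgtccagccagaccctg
Arsa: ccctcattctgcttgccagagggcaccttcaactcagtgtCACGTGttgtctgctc
These matches describe the letters of the windows, and binding of a factor there was not measured.

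In LSD1 KO ESCs, Psap rose while the lysosomal members split. A gene is called here when edgeR's quasi-likelihood test gave a Benjamini-Hochberg adjusted p below 0.01 over all genes tested and the log2 fold change passed 1 in size. Of 35 members, 3 were called up, against 7.56% of all genes, and 2 were called down, against 5.74%. At an adjusted p below 0.01 and any fold, 6 members were up (14.4% of all genes) and 12 down (18.7%). The median log2 fold change over the members was -0.25, beside 0.00 over all genes tested. The members as a set therefore did not follow Psap: 24 of the 35 had a fold change below 0.

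Psap was 138 to 203 CPM in the 11 WT ESC libraries (median 156) and 428 to 512 CPM in the 6 LSD1 KO libraries, with no overlap. Its log2 fold change was 1.37 ± 0.13 (SE, adjusted p = 8.99e-11, edgeR). Among cathepsins, the cysteine protease Ctsl (mm9 chr13:64463198-64471828, minus strand) was 95.9, 152 and 87.8 CPM in WT 1 to 3, 49.6 to 104 in the other 8 WT libraries, and 276, 282, 312, 300, 338 and 330 in LSD1 KO. Every LSD1 KO library exceeded every WT library, and Ctsl rose by 1.39 ± 0.19 (adjusted p = 2.18e-07). LSD1 KO ESCs of the other experiments had less of it, with 151 and 151 CPM in DMSO and 157 and 136 CPM without DOX, beside 152 CPM in the highest WT library. Those libraries had no WT library beside them and were not tested against WT.

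Ctsb, Ctsd and Ctsa were lower at smaller folds, while Ctsz (-0.20, adjusted p = 0.318) and Ctsh (0.24, adjusted p = 0.874) did not pass. Ctsb, a cysteine protease, was 77 to 95.5 CPM in LSD1 KO (median 87.6) and 105 to 181 CPM in WT (median 126), a difference of -0.81 ± 0.11 (adjusted p = 2.15e-07). Ctsd was 86.5 to 104 CPM against 98.5 to 190 CPM in WT, -0.73 ± 0.10 (adjusted p = 1.75e-07), and Ctsa, the protective protein of Glb1 and Neu1, was 48.6 to 53.4 CPM against 60.1 to 145, -0.93 ± 0.15 (adjusted p = 3.41e-06). Tpp1, an aminopeptidase of the lumen, stayed just inside the fold threshold with 32.2 to 37.8 CPM against 48.7 to 91.5, -0.97 ± 0.12 (adjusted p = 3.28e-08). Ctsb, Ctsa and Tpp1 did not overlap WT, and Ctsd did through WT library 2. In LSD1 KO ESCs of the other experiments, Ctsa was 105 and 101 CPM in DMSO and 66.4 and 69 CPM without DOX, inside its WT range. Without DOX, the means of Ctsb (112 CPM) and Ctsd (129 CPM) also lay inside WT, and that of Tpp1 (37.7 CPM) lay below it. These libraries were not tested against WT.

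Among lipid hydrolases, Lipa, the acid lipase that splits cholesteryl esters and triglycerides (mm9 chr19:34566806-34601964, minus strand), was 5.9, 12.3, 6.41, 11.6, 6.66 and 18.7 CPM in LSD1 KO. It was 1.31, 2.62 and 2.96 CPM in WT 1 to 3 and 2.9 to 6.79 CPM in the other WT libraries. LSD1 KO thus lay above WT 1 to 3 but overlapped the rest, and the rise of 2.09 ± 0.28 (adjusted p = 1.12e-07) became 1.32 without the alignment term, still called. In LSD1 KO ESCs without DOX, Lipa had a mean of 15.7 CPM (SD 1.76, n = 2), above the highest WT library. Those libraries were not tested against WT. Arsa, which removes sulfate from sulfatide with the help of a saposin (mm9 chr15:89302907-89307855, minus strand), was 5.01, 4.12, 8.58, 4.69, 6.8 and 4.18 CPM in LSD1 KO. WT ran from 11.4 to 29.3 CPM (median 17.1), above every LSD1 KO library, and Arsa fell by 1.93 on the log2 scale (SE 0.30, adjusted p = 1.52e-06).

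Among glycan hydrolases, only Neu1 was called. It was 8.12, 5.3, 6.55, 6.28, 7.9 and 5.74 CPM in LSD1 KO against 9.85 to 17.4 CPM in WT (median 14.5), with no overlap, and fell by 1.13 on the log2 scale (SE 0.22, adjusted p = 5.48e-05). Man2b1, an alpha-mannosidase, was 49.5 to 57.6 CPM against 74.1 to 106, -0.66 ± 0.10 (adjusted p = 8e-07). The 2 LSD1 KO libraries in DMSO had 17.1 and 15.3 CPM of Neu1 and 16.2 and 13.4 CPM of Arsa, inside the WT range of both genes. In LSD1 KO without DOX, Neu1 had a mean of 13 CPM (SD 2.53, n = 2), again inside its WT range. Arsa was lower there, at 4.99 and 6.91 CPM.

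Among membrane proteins, Slc11a1, which moves divalent metals out of phagosomes (mm9 chr1:74421777-74432625, plus strand), was 5.75, 5.79, 7.41, 5.57, 8.47 and 6.24 CPM in LSD1 KO against 1.73 to 5.76 in WT. The groups touched at their edges, and Slc11a1 rose by 1.12 ± 0.34 (adjusted p = 0.00777), a call that was lost at 0.79 without the alignment term. In LSD1 KO ESCs without DOX, Slc11a1 had a mean of 15.7 CPM (SD 3.93, n = 2), above the highest WT library. Those libraries were not tested against WT. Lamp1 was 355 to 407 CPM against 362 to 419 (-0.08 ± 0.07, adjusted p = 0.348), and Lamp2, its partner in the lysosomal membrane, 93.8 to 127 against 94.4 to 152 (-0.07 ± 0.15, adjusted p = 0.745). Cd63 was 118 to 137 CPM against 44.8 to 96.9, above every WT library, with a smaller difference of 0.49 ± 0.16 (adjusted p = 0.00935) once WT 1 to 3 (83.2 to 96.9 CPM) were its effective controls. Of 9 tested extraembryonic endoderm markers 3 were called up in LSD1 KO ESCs, with a sum of 70.5 to 111 CPM against 18.4 to 50.2 in WT. Of 8 trophoblast markers 3 were called up and 1 down, and of 9 tested macrophage markers 1 was called up. The part of these markers in the member values was not tested.

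**Figure D1:**
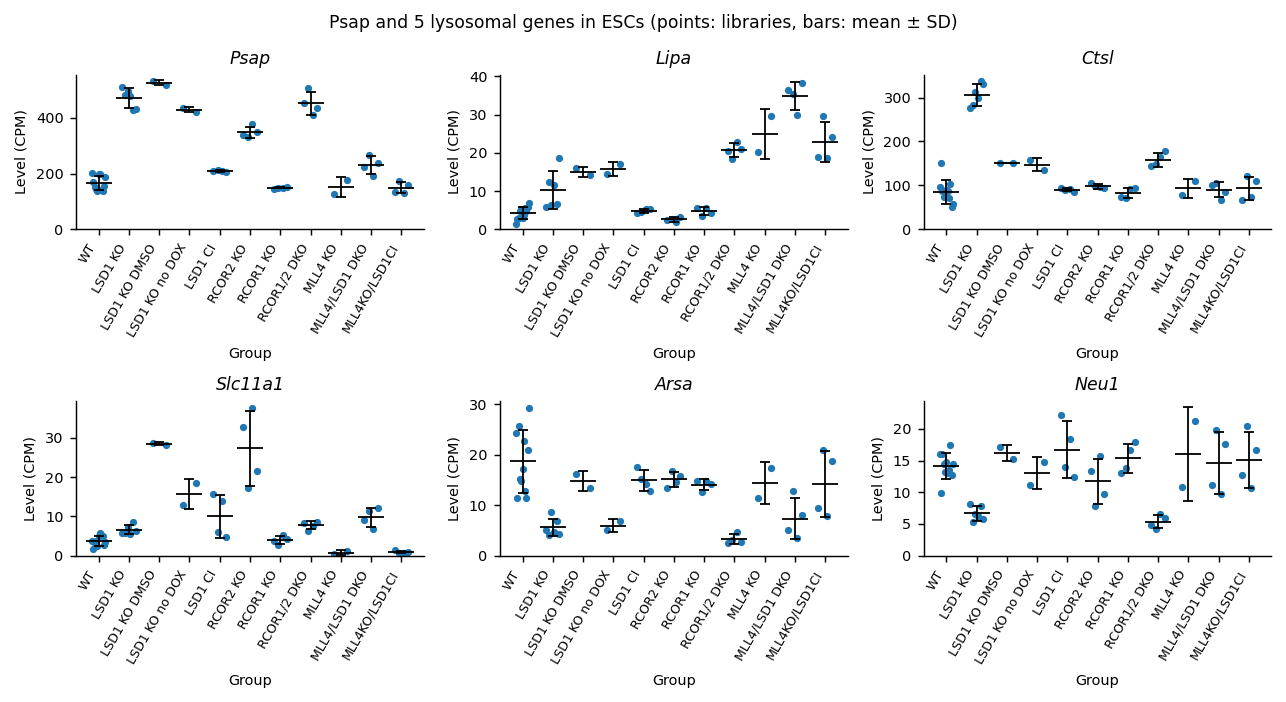
Level in CPM of Psap and of 5 members in each library of 11 groups of ESCs (points), with the mean and SD of each group (bars). Psap and Ctsl are high in LSD1 KO, Slc11a1 is highest in LSD1 KO in DMSO and in RCOR2 KO, Lipa is high in LSD1 KO and RCOR1/2 DKO, and Arsa and Neu1 are low in untreated LSD1 KO and RCOR1/2 DKO.

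LSD1 CI ESCs, which keep an inactive LSD1, showed almost none of this. Slc11a1 was the 1 member called up, against 1.78% of all genes, and no member was called down, against 2.13%. At any fold the counts were the same, 1 up (3.52% of all genes) and 0 down (3.26%). The 0 down is edgeR's count. DESeq2 also called Slc11a1 only, and 8 members had an unadjusted p below 0.05, of which 7 were higher. The median over members was 0.05, beside -0.03 over all genes.

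Slc11a1 was 15.6, 5.96, 13.9 and 4.79 CPM in the LSD1 CI libraries, so libraries 1 and 3 stood well above WT and library 4 lay inside its range. The rise of 1.24 ± 0.27 (adjusted p = 0.00181) lost its call without LSD1 CI library 1 (0.96) or 3 (1.04), with the WT libraries of one alignment (1.25) and in a fit of the compared groups alone (1.24). Psap was 208, 213, 209 and 204 CPM, above all WT libraries, with a difference of 0.34 ± 0.11 (adjusted p = 0.0265) that did not pass. Cln3 (0.38, adjusted p = 0.0239), Tpp1 (-0.33, adjusted p = 0.0401) and Hexa (0.65 ± 0.22, adjusted p = 0.0419) came next without passing. Ctsl (0.22), Ctsd (0.09), Lamp1 (0.05), Ctsb (0.05), Lamp2 (-0.08) and Cd63 (0.36) did not pass either.

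Set directly against LSD1 CI, LSD1 KO ESCs had 2 members called up (4.68% of all genes) and 3 called down (4.12%), in a comparison that rests on WT libraries of both alignments. Lipa rose by 2.13 ± 0.36 (adjusted p = 1.91e-05) and Ctsl by 1.17 ± 0.24 (adjusted p = 0.000351), beside Psap at 1.03 ± 0.17 (adjusted p = 1.31e-05). Arsa fell by 1.65 on the log2 scale (adjusted p = 0.00158), Neu1 fell by 1.35 (adjusted p = 0.000539), and Galc, which cleaves galactosylceramide with a saposin as helper, fell by 1.16 (adjusted p = 0.000658). Galc was 3.6 to 5.49 CPM in LSD1 KO and 8.95, 11.8, 9.28 and 10.3 CPM in LSD1 CI. Slc11a1 differed by -0.13 (adjusted p = 0.878).

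RCOR2 KO ESCs carried a strong rise of 1 member. Slc11a1 was 32.8, 17.3, 37.6 and 21.6 CPM, each library at least 3 times the highest WT library of 5.76, and rose by 2.79 ± 0.27 (adjusted p = 7.64e-10). It was the only member called up, against 2.49% of all genes, and none was called down, against 1.81%. DESeq2 gave the same counts, and 18 members had an unadjusted p below 0.05, of which 12 were higher. Psap rose beside it, with 338, 332, 377 and 349 CPM and a log2 fold change of 1.18 ± 0.10 (adjusted p = 7.4e-11). Of 9 tested macrophage markers 2 were called up in RCOR2 KO ESCs, as was 1 of 9 extraembryonic endoderm markers. Their part in the member values was not tested.

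At any fold, 7 members of RCOR2 KO ESCs were up (6.37% of all genes) and 2 down (8.08%). Those up included Cd63 (0.53 ± 0.13, adjusted p = 0.00255), the sulfamidase Sgsh (0.93 ± 0.24, adjusted p = 0.00379), the acid alpha-glucosidase Gaa (0.64, adjusted p = 0.0038), Cln3 (0.48, adjusted p = 0.0023) and Ctsb (0.38, adjusted p = 0.00474). Scarb2, the receptor that brings glucocerebrosidase to the lysosome, lay on the threshold itself. It was 28.1, 34.9, 26.8 and 34.3 CPM against 48 to 110 in WT, a difference of -1.0 ± 0.15 (adjusted p = 4.19e-06) that passed without RCOR2 KO library 2 (-1.06) or 4 (-1.04). Ctsl (0.45, adjusted p = 0.0271), Lamp1 (0.11), Lamp2 (0.03) and Ctsd (0.08) were not called.

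In RCOR1 KO ESCs no member was called by edgeR, where 0.0227% of all genes were called either way. DESeq2 called 0 as well, and 6 members had an unadjusted p below 0.05, of which 2 were higher. Psap was 146, 149, 149 and 153 CPM, inside the WT range (-0.15 ± 0.11, adjusted p = 0.436). The smallest adjusted p belonged to Glb1 (-0.29 ± 0.11, adjusted p = 0.109). Slc11a1 differed by -0.09, Ctsl by 0.10, Lamp1 by 0.08, Lamp2 by -0.09, Ctsb by -0.02, Ctsd by -0.07 and Cd63 by -0.01.

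RCOR1/2 DKO ESCs had the most called members of the untreated ESC groups. There 2 were called up (10.6% of all genes) and 4 called down (7.65%), and 7 were up (17.8%) and 12 down (19.2%) at any fold. The share of members down at any fold was above that of all genes, and the share up was near it. Members were called up less often and down more often than all genes, though on few members. The median was -0.11, and 21 of 35 members had a negative fold change, while Psap rose by 1.35 ± 0.10 (adjusted p = 7.6e-14) with 453, 509, 410 and 436 CPM.

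Of the members called up, Lipa was 20.4, 18.4, 22.7 and 21.1 CPM, all above the 1.31 to 6.79 of WT, and rose by 1.96 ± 0.21 (adjusted p = 4.22e-10). Arsb, which desulfates dermatan and chondroitin sulfate, was 1.02, 0.767, 1.3 and 1.32 CPM against 0.132 to 0.722 and rose by 1.94 ± 0.49 (adjusted p = 0.00122) at a very low level. Both groups of values were free of overlap with WT.

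Of the members called down, Arsa was 2.51, 3.15, 4.62 and 2.64 CPM against 11.4 to 29.3 and fell by 2.60 on the log2 scale (SE 0.31, adjusted p = 7.61e-09). Neu1 was 4.77, 4.19, 6.56 and 5.88 CPM against 9.85 to 17.4 and fell by 1.53 (adjusted p = 1.27e-07). Neither group overlapped WT. Tpp1 was 32.3, 35.9, 32.9 and 31.2 CPM against 48.7 to 91.5 and fell by 1.06 (adjusted p = 5.97e-10). Ctsz, a carboxypeptidase of the cathepsin family, was 14.9, 13.6, 14.8 and 14.8 CPM against 19.3 to 37.4 and fell by 1.05 (adjusted p = 1.36e-07). Both were again clear of WT, but lay near the fold threshold: Tpp1 fell below it at -0.93 without WT libraries 10 and 11 and the MLL4 groups, an alternative added after the data had been seen, and Ctsz at -0.98 without the alignment term.

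Other members of RCOR1/2 DKO ESCs moved by less than 2-fold. Ctsl was 143, 148, 164 and 178 CPM, reaching down into the WT range (0.93 ± 0.15, adjusted p = 3.44e-06), and Slc11a1 was 8.31, 6.33, 7.48 and 8.69 CPM, above WT but without passing the test (0.75 ± 0.28, adjusted p = 0.0231). Lamp1 was 463 to 494 CPM (0.22 ± 0.06, adjusted p = 0.00165), Lamp2 73.7 to 98.8 (-0.61 ± 0.14, adjusted p = 0.000269), Cd63 90 to 108 (0.57, adjusted p = 0.000389), Ctsb 99.3 to 107 (-0.47, adjusted p = 0.00025) and Ctsd 143 to 151 (-0.08, adjusted p = 0.498). Laptm4a (0.40, adjusted p = 1.92e-07) and Man2b1 (-0.80, adjusted p = 1.23e-09) moved at any fold. Markers of other cells moved with this group: 4 of 9 tested extraembryonic endoderm genes and 4 of 8 trophoblast genes were called up, and the endoderm genes summed to 300 to 347 CPM against 18.4 to 50.2 in WT. One way or the other, 1 trophoblast gene was called down, and of 9 tested macrophage markers 3 were called up and 1 down. Their part in the member values was not tested. All comparisons of untreated ESC mutants with WT share the WT libraries, so their values stand side by side and are not independent of each other.

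**Figure D2:**
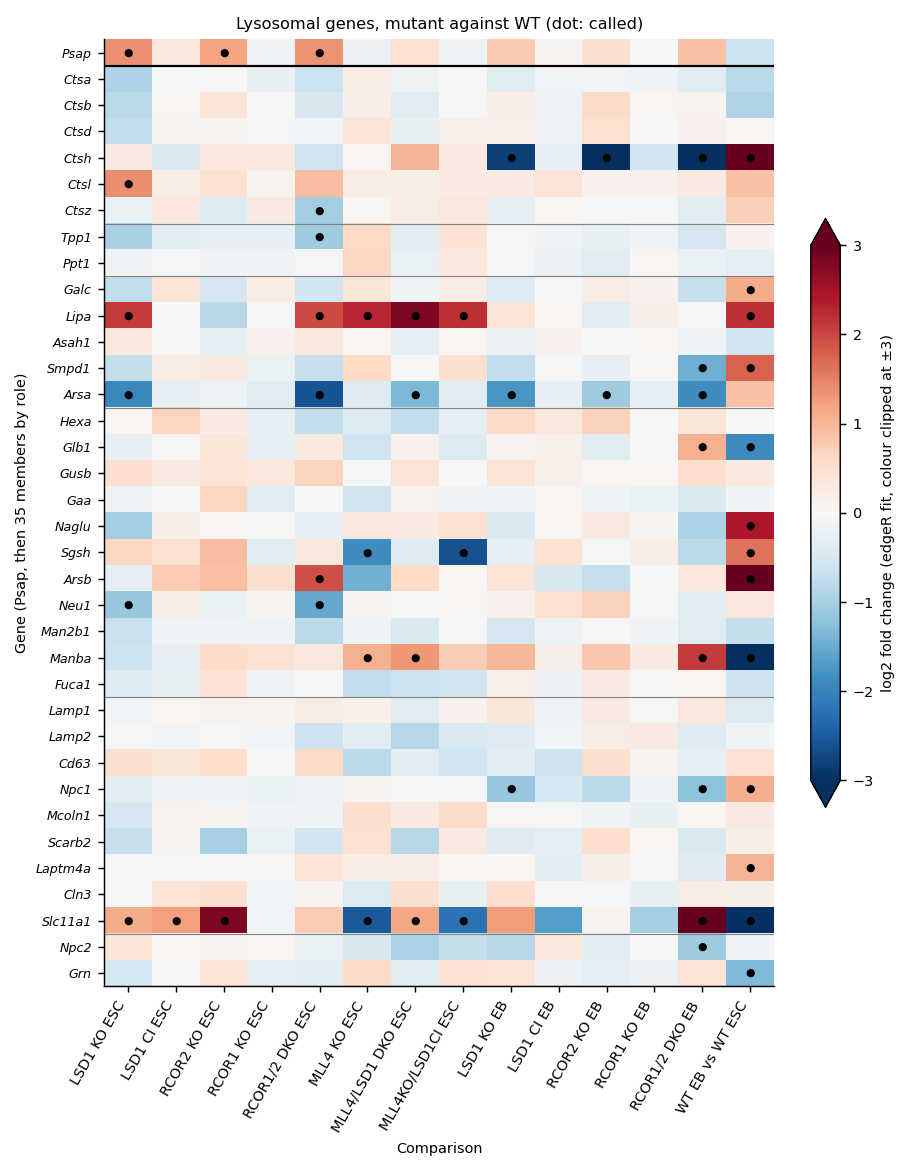
Log2 fold change of Psap and the 35 members, ordered by role, in 14 comparisons (colour scale ending at 3 in either direction, dots mark called values). Rows hold both directions within each role, Psap carries a dot in 3 columns (LSD1 KO ESC, RCOR2 KO ESC, RCOR1/2 DKO ESC) and not in MLL4/LSD1 DKO, and the columns of RCOR1 KO hold no dot.

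MLL4 KO ESCs had 2 members called up (3.55% of all genes) and 2 down (6.89%), while Psap was 127 and 177 CPM (-0.18, adjusted p = 0.38). Lipa was 20.2 and 29.6 CPM, above all WT libraries, and rose by 2.28 ± 0.25 (adjusted p = 3.03e-09). Manba, a beta-mannosidase, was 118 and 157 CPM against 36.5 to 88.2 in WT and rose by 1.06 ± 0.28 (adjusted p = 0.00456). Slc11a1 was 0.304 and 1.2 CPM, below the 1.73 to 5.76 of WT, and fell by 2.53 on the log2 scale (SE 0.50, adjusted p = 0.000129), and Sgsh was 0.557 and 1.15 CPM against 1.69 to 4.48 and fell by 1.86 (adjusted p = 0.000306). Without MLL4 KO library 1 the calls of Slc11a1 (-1.86), Sgsh (-1.43) and Manba (1.26) were lost, Manba also lost its call without library 2 (0.84), and those of Sgsh and Manba went with a fit of the 2 groups alone (-1.86 and 1.07).

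In MLL4/LSD1 DKO ESCs 3 members were called up (7.09% of all genes) and 1 down (5.21%), with Psap at 223, 268, 193 and 237 CPM (0.45 ± 0.11, adjusted p = 0.000898). Lipa reached 36.4, 35.3, 29.8 and 38.3 CPM, its highest level among the ESC groups, and rose by 2.79 ± 0.21 (adjusted p = 9.62e-14). Manba was 215, 136, 174 and 124 CPM (1.31 ± 0.23, adjusted p = 1.67e-05) and Slc11a1 8.98, 11.3, 6.66 and 12.1 CPM (1.17 ± 0.28, adjusted p = 0.000886), both above WT. Arsa fell by 1.34 on the log2 scale (adjusted p = 0.000314) with 5.04, 12.8, 3.45 and 7.99 CPM, of which library 2 lay inside the WT range. Npc2, the soluble carrier that hands cholesterol to Npc1, was 67.4 to 103 CPM against 143 to 221 in WT (-0.96, adjusted p = 3.41e-10) and was called only without MLL4/LSD1 DKO library 2 (-1.06). Lamp2 (-0.86, adjusted p = 3.99e-06), Lamp1 (-0.36, adjusted p = 4.28e-06) and Scarb2 (-0.84, adjusted p = 1.71e-05) were lower at any fold.

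In MLL4KO/LSD1CI ESCs 1 member was called up (5.56% of all genes) and 2 down (7.63%), with Psap not called (-0.16, adjusted p = 0.259). Lipa rose by 2.19 ± 0.21 (adjusted p = 5.07e-11) with 18.9, 29.7, 18.6 and 24 CPM. Slc11a1 was 1.38, 0.777, 0.535 and 1 CPM and fell by 2.21 on the log2 scale (adjusted p = 4.68e-06). Sgsh was 0.577, 0.518, 0.321 and 0.555 CPM and fell by 2.62 (adjusted p = 1.14e-08). These 2 were below every WT library. Against WT libraries 10 and 11 alone, an alternative added after the data had been seen, Slc11a1 lost its call here (-1.66) and in MLL4 KO (-1.98).

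Markers of other cells moved in the MLL4 mutants as well. In MLL4 KO, 2 of 8 trophoblast and 2 of 9 tested endoderm markers were called down. In MLL4/LSD1 DKO, 2 of 9 macrophage markers were called up and 1 down, and 2 of 9 endoderm markers were called each way. In MLL4KO/LSD1CI, 2 of 9 macrophage markers were called up and 1 down, with a sum of 9.43 to 20.1 CPM against 10.2 to 15.4 in WT, and 2 of 9 endoderm markers were called down. What these markers contributed was not tested.

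MLL4/LSD1 DKO against MLL4 KO ESCs, the direct comparison, had 2 members called up (6.28% of all genes) and 1 down (2.28%). Slc11a1 rose by 3.70 ± 0.53 (adjusted p = 1.21e-06), and Psap differed by 0.62 ± 0.16 (adjusted p = 0.0029). Scarb2 was 37.2, 39.5, 33.4 and 41.9 CPM against 88.3 and 102 and fell by 1.30 on the log2 scale (adjusted p = 2.42e-06). Sgsh rose by 1.48 (adjusted p = 0.00655), a call that did not hold without MLL4 KO library 1 (1.04) or without MLL4/LSD1 DKO library 2 (1.42) or 4 (1.2).

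Between WT ESCs and WT EBs, 9 of 35 members were called up (20.3% of all genes) and 4 down (15.2%), and 13 were up (30.2%) and 10 down (29.0%) at any fold, with a median of 0.17. In bulk RNA, a shift in the share of cells of one type and a shift in RNA per cell cannot be told apart, which holds for all EB values here. The medium also changed between ESCs and EBs, so its part and that of differentiation cannot be told apart. The marker lists moved strongly with the same step: 12 extraembryonic endoderm genes summed to 18.4 to 50.2 CPM in WT ESCs and 438 to 878 in WT EBs, with 11 called up. The 12 macrophage markers, fixed because lysosomal genes are high in such cells, summed to at most 20.1 CPM in any group. Their part in the member values was not tested.

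The genes that rose from ESCs to EBs were mostly members that were low in ESCs. Ctsh, an aminopeptidase cathepsin, was 0 to 0.626 CPM in WT ESCs and 21.5, 6.74, 59.9, 17.1, 13.4, 18.7 and 8.78 CPM in WT EBs, rising by 6.29 ± 0.58 (adjusted p = 1.64e-08) with a wide spread in EBs. Arsb rose by 3.86 ± 0.29 (adjusted p = 6.51e-10), from 0.132 to 0.722 CPM in ESCs to 3.15 to 6.05 in EBs. Naglu and Sgsh, which both act on heparan sulfate, rose by 2.43 ± 0.30 (adjusted p = 4.77e-07) and 1.62 ± 0.24 (adjusted p = 7.38e-06). Of the 5 lipid hydrolases 3 were called up: Lipa by 2.20 ± 0.19 (adjusted p = 3.66e-09), the sphingomyelinase Smpd1 by 1.77 ± 0.13 (adjusted p = 2.5e-10) and Galc by 1.11 ± 0.15 (adjusted p = 1.41e-06). Asah1 was lower at any fold (-0.60, adjusted p = 1.15e-05) and Arsa higher (0.88, adjusted p = 0.000868). The cholesterol transporter Npc1 rose by 1.10 ± 0.10 (adjusted p = 1.34e-08), and Npc2, which hands it cholesterol, was not called (-0.11, adjusted p = 0.285). Laptm4a, a membrane protein of late endosomes, rose by 1.02 ± 0.08 (adjusted p = 5.36e-10).

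Members that fell were Slc11a1, Manba, Glb1 and Grn. Slc11a1 went from 1.73 to 5.76 CPM in WT ESCs to 0.0225 to 0.797 in WT EBs and fell by 3.90 on the log2 scale (adjusted p = 2.01e-06). Manba went from 36.5 to 88.2 CPM to 3.38 to 12.4 and fell by 3.21 (adjusted p = 1.46e-09). Glb1 went from 70.2 to 120 CPM to 23.9 to 31.1 and fell by 1.91 (adjusted p = 5.54e-11). Grn, the progranulin gene whose product travels to lysosomes with prosaposin, went from 62 to 147 CPM to 33.5 to 56 and fell by 1.32 (adjusted p = 8.8e-07). Psap itself was 99.3 to 139 CPM in WT EBs (-0.65 ± 0.11, adjusted p = 3.65e-05), and Ctsb (-0.91, adjusted p = 5.16e-07), Lamp1 (-0.41 ± 0.06, adjusted p = 1.1e-05), Ctsl (0.87, adjusted p = 0.000144), Cd63 (0.44, adjusted p = 0.00178), Lamp2 (-0.13) and Ctsd (0.05) were not called.

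LSD1 KO EBs had 0 members called up, against 8.28% of all genes, and 3 called down, against 5.42%. DESeq2 also called those 3 and no member up, and 15 members had an unadjusted p below 0.05, of which 5 were higher. Psap was 224 and 175 CPM, above the 99.3 to 139 of WT EBs, with a difference of 0.78 ± 0.15 (adjusted p = 0.00031) that did not reach the fold threshold. Npc1 was 85.3 and 65 CPM against 145 to 192 and fell by 1.13 on the log2 scale (adjusted p = 1.1e-05), a call lost at -0.94 without LSD1 KO EB library 2. Arsa was 11.7 and 10.3 CPM against 27.1 to 48.3 and fell by 1.74 (adjusted p = 2.06e-05). Ctsh was 2.9 and 3.05 CPM against 6.74 to 59.9 and fell by 2.79 (adjusted p = 0.00563), a call lost without either library (-2.74 and -2.82).

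Members near them in LSD1 KO EBs were Npc2 (-0.83 ± 0.12, adjusted p = 1.57e-05), Smpd1 (-0.73 ± 0.14, adjusted p = 0.000378), Hexa (0.57, adjusted p = 0.00214) and Lamp1 (0.37, adjusted p = 0.00548). Ctsl (0.24), Lamp2 (-0.38), Cd63 (-0.33), Ctsb (0.20), Ctsd (0.15) and Slc11a1 (1.25, adjusted p = 0.25) were not called. Differentiation markers moved with these libraries: 9 of 12 extraembryonic endoderm markers were called down although their sum was 900 to 922 CPM, and 3 of 8 ESC markers were called up with a sum of 576 to 650 CPM against 48.8 to 215 in WT EBs. What these markers contributed was not tested.

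A separate experiment held EBs with DMSO. Against WT EBs with DMSO, LSD1 KO EBs with DMSO had 2 members called up (11.7% of all genes) and 3 down (7.13%), with Psap at 206 and 212 against 99.6 and 104 CPM (0.95 ± 0.11, adjusted p = 3.36e-05). Npc1 was 61.5 and 64.8 CPM against 149 and 140 and fell by 1.28 on the log2 scale (adjusted p = 9.32e-06). Ctsh was 2.86 and 2.25 CPM against 16.2 and 22.4 and fell by 3.0 (adjusted p = 1.54e-05), and Arsa was 12.3 and 10.4 CPM against 31.1 and 30.2 and fell by 1.52 (adjusted p = 2.38e-05). Manba was 22.2 and 23.1 CPM against 7.79 and 5.44 and rose by 1.68 ± 0.17 (adjusted p = 1.21e-05). Slc11a1 rose by 2.79 ± 0.58 (adjusted p = 0.00229) on 40 and 28 counts against 2 and 7, and lost its call without LSD1 KO library 1 (2.60) or WT library 1 (2.04). Of 8 ESC markers 6 were called up and 1 down, and of 12 endoderm markers 8 were called down and 1 up. Their part in the member values was not tested.

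LSD1 CI EBs had no member called, where 2.54% of all genes were called either way by edgeR. DESeq2 called 0, and 9 members had an unadjusted p below 0.05, of which 5 were higher. Cd63 (-0.63 ± 0.12, adjusted p = 0.00131) and Npc1 (-0.52 ± 0.11, adjusted p = 0.00443) came nearest, and Psap differed by 0.08 (adjusted p = 0.692). Ctsh was 13.4, 17.1, 11.3 and 25 CPM, within the WT range. The endoderm markers were called 0 times there.

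In the libraries labelled RCOR2 KO EB, which kept Rcor2 RNA, 0 members were called up (2.18% of all genes) and 2 down (3.10%). DESeq2 called the same 2, and 15 members had an unadjusted p below 0.05, of which 8 were higher. Ctsh was 2.45 and 1.02 CPM and fell by 3.64 on the log2 scale (adjusted p = 0.00384), and Arsa was 16.4 and 20.4 CPM and fell by 1.06 (adjusted p = 0.00473), both below every WT EB library. Neither call held without either library, with values from -4.40 to -3.15 for Ctsh and from -1.25 to -0.91 for Arsa, and a fit of the 2 groups alone called 0. Psap was 138 and 203 CPM (0.49, adjusted p = 0.0282). Of 12 endoderm markers 8 were called down there and 1 up, with a sum of 1347 to 1658 CPM, and the part of such cells in the member values was not tested.

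RCOR1 KO EBs had no member called, where 0.00558% of all genes, a single gene, were called either way by edgeR. DESeq2 called 0, and 1 member had an unadjusted p below 0.05. The smallest adjusted p belonged to Lamp2 (0.28, adjusted p = 0.494), and Psap differed by -0.04 (adjusted p = 0.954).

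RCOR1/2 DKO EBs had the most called members of any mutant, 3 up (14.1% of all genes) and 5 down (12.3%), with a median of -0.25. Taken over both directions, the share of members called did not exceed that of all genes. Psap was 196, 195, 251 and 237 CPM (0.89 ± 0.12, adjusted p = 1.65e-06), above WT but short of the fold threshold. ESC markers remained higher in these EBs, with 7 of 8 called up and a sum of 1223 to 1337 CPM, and 8 of 12 endoderm markers were called down. What these markers contributed was not tested.

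The 5 that fell were Smpd1, Npc1, Npc2, Arsa and Ctsh. Smpd1 was 7.61, 9.02, 7.72 and 7.85 CPM against 18.8 to 25.6 in WT EBs and fell by 1.47 on the log2 scale (SE 0.11, adjusted p = 7.19e-10). Npc1 was 74.9, 66.3, 72.9 and 74.7 CPM against 145 to 192 and fell by 1.22 (adjusted p = 2.02e-08), and its partner Npc2 was 82.5, 88.1, 74.8 and 75.6 CPM against 141 to 187 and fell by 1.07 (adjusted p = 3.02e-09). These levels were close to those of WT ESCs for Npc1 (53.5 to 90.5 CPM) and below them for Npc2. Arsa was 10.2, 10.7, 10.8 and 9.69 CPM and fell by 1.86 (adjusted p = 4.96e-08). Ctsh, the protease among them, was 0.959, 1.06, 0.702 and 0.51 CPM against 6.74 to 59.9 and fell by 4.70 (SE 0.63, adjusted p = 2.35e-06).

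The 3 that rose were genes that WT cells lower on differentiation. Manba was 34, 35.9, 33.2 and 29.3 CPM against 3.38 to 12.4 and rose by 2.10 ± 0.28 (adjusted p = 1.88e-06). Glb1 was 59, 60.7, 56.6 and 52.1 CPM against 23.9 to 31.1 and rose by 1.06 ± 0.08 (adjusted p = 1.38e-09). Slc11a1 was 2.34, 3.18, 1.81 and 3.17 CPM against 0.0225 to 0.797 and rose by 3.04 ± 0.67 (adjusted p = 0.000532). Naglu (-0.96, adjusted p = 4.68e-06), Lamp1 (0.31, adjusted p = 0.00165), Lamp2 (-0.39), Cd63 (-0.25), Ctsl (0.28), Ctsd (0.12) and Ctsb (0.10) were not called.

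**Figure D3:**
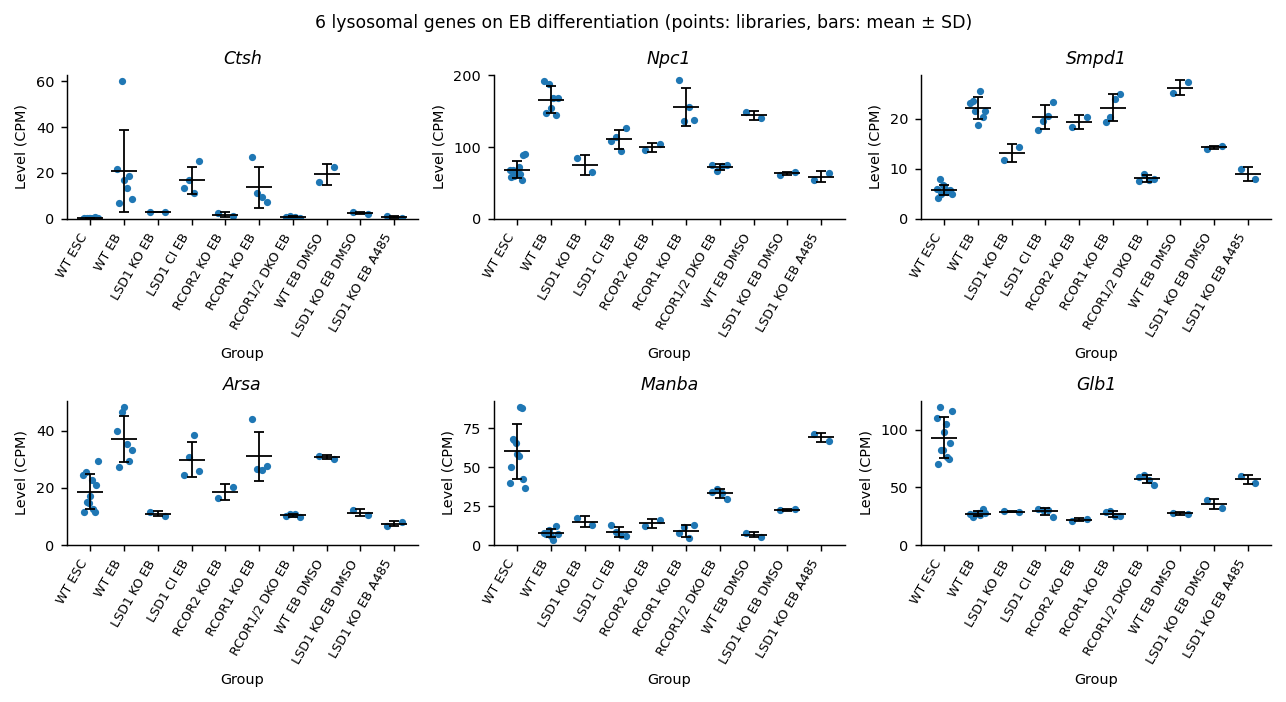
Level in CPM of 6 members in each library of WT ESCs and of 9 groups of EBs (points), with the mean and SD of each group (bars). Ctsh, Npc1, Smpd1 and Arsa are high in WT EBs and low in RCOR1/2 DKO EBs, and Manba and Glb1 are high in WT ESCs, low in WT EBs and in between in RCOR1/2 DKO EBs.

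Whether a mutation acted differently in EBs and ESCs was tested as an interaction in one fit. For LSD1 KO, 3 members had a higher response in EBs (8.86% of all genes) and 3 a lower one (5.98%). The response of Neu1 was higher by 1.24 ± 0.24 (adjusted p = 0.000165), that of Manba by 1.63 ± 0.37 (adjusted p = 0.000793) and that of Ctsb by 1.01 ± 0.18 (adjusted p = 6.96e-05). The response of Npc2 differed by -1.26 ± 0.18 (adjusted p = 1.32e-06), that of Lipa by -1.69 ± 0.43 (adjusted p = 0.0024) and that of Ctsl by -1.16 ± 0.29 (adjusted p = 0.00245). With only 2 LSD1 KO EB libraries, Ctsl and Lipa lost their calls without either, Neu1 (1.00) and Manba (1.36) without library 1 and Ctsb (0.92) without library 2, so Npc2 alone kept its call under each omission. Psap differed by -0.59 (adjusted p = 0.0313).

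For RCOR1/2 DKO, 4 members had a higher response in EBs (10.1% of all genes) and 5 a lower one (9.58%). Higher were Slc11a1 (2.27 ± 0.58, adjusted p = 0.00182), Manba (1.79 ± 0.31, adjusted p = 2.12e-05), Neu1 (1.2 ± 0.21, adjusted p = 1.8e-05) and Hexa (1.10 ± 0.22, adjusted p = 0.00015). Lower were Ctsh (-4.09 ± 0.89, adjusted p = 0.000344), Lipa (-2.0 ± 0.33, adjusted p = 9.94e-06), Arsb (-1.63 ± 0.42, adjusted p = 0.00191), Npc1 (-1.10 ± 0.15, adjusted p = 2.23e-07) and Sgsh (-1.13 ± 0.35, adjusted p = 0.00873). The call of Sgsh was lost without any of 5 RCOR1/2 DKO libraries, EB libraries 1 and 2 and ESC libraries 2, 3 and 4, at values between -1.19 and -1.01. The members shared no pattern. For Lipa, RCOR1/2 DKO ESCs had 18.4 to 22.7 CPM and RCOR1/2 DKO EBs 21.9 to 31.9 CPM, while WT went from at most 6.79 CPM to 15.7 to 31.3 CPM. The larger response thus lay in ESCs for Lipa, as for Arsb and Neu1, and in EBs for Ctsh, Npc1, Manba and Slc11a1.

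DOX gave small shifts of the members in the lines that carry an LSD1 transgene, and members also rose with DOX in the line without it, as described below. In LSD1Res ESCs, DOX called no member in edgeR's test, where 2.37% of all genes were called either way. DESeq2 called 1, Lipa, as lower, and 16 members had an unadjusted p below 0.05, of which 12 were higher. At any fold, a rule applied here after the values had been seen, 7 members were up, against 1.49% of all genes, and 0 down, against 3.55%. The 7 were Hexa, Ctsd, Ctsa, Tpp1, Man2b1, Lamp1 and Gaa. The summed level of the members went from 1932 to 2137 CPM without DOX to 2112 to 2424 CPM with it. In DKO + LSD1 it went from 2232 to 2516 CPM to 2625 to 2797 CPM. LSD1 KO without the transgene went from 2229 to 2250 CPM to 2583 to 2968 CPM.

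Hexa, a subunit of the enzyme that degrades GM2 ganglioside, was 25.7, 28.1, 26.1 and 27.4 CPM without DOX and 54.9, 44.4, 53.5 and 56.8 CPM with it, a difference of 1.00 ± 0.13 (adjusted p = 7.37e-05) that passed the fold threshold without DOX library 2 (1.06) or without library 2 (1.02) or 4 (1.01) of the cells without DOX. Ctsa was 66.4, 66.1, 63.1 and 60.8 CPM without DOX and 94.8, 84.7, 84.4 and 89.8 CPM with it (0.50 ± 0.07, adjusted p = 0.000327), and Ctsd 113, 112, 111 and 116 CPM against 156, 149, 135 and 154 (0.43 ± 0.06, adjusted p = 0.000165). None of these groups overlapped. Tpp1 (0.66 ± 0.11, adjusted p = 0.000827) and Lamp1 (0.31 ± 0.06, adjusted p = 0.00138) were also higher. Lipa was 7.99, 8.32, 16.7 and 18.6 CPM without DOX and 4.23, 4.51, 8.43 and 7.6 CPM with it, lower in each same-numbered pair (-1.03 ± 0.25, adjusted p = 0.0105). Slc11a1 was 7.25, 5.87, 12.3 and 8.3 CPM against 1.48, 2.33, 7 and 5.67 (-1.01 ± 0.37, adjusted p = 0.0848), and Psap 284, 260, 407 and 413 CPM against 238, 238, 328 and 347 (-0.21, adjusted p = 0.331).

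Same-numbered libraries of LSD1Res deviated together, so the replicate number was also used as a block. This fit called 2 members (4.06% of all genes): Hexa rose by 1.00 ± 0.07 (adjusted p = 7.49e-07) and Slc11a1 fell by 1.15 on the log2 scale (adjusted p = 0.00877). Lipa was lower by -0.99 ± 0.12 (adjusted p = 5.5e-05), and Psap by -0.20 ± 0.05 (adjusted p = 0.00628). At any fold the block gave 9 members up and 3 down.

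In DKO + LSD1 ESCs, which lack RCOR1 and RCOR2, DOX also called no member, where 0.332% of all genes were called either way by edgeR. DESeq2 called 0, and 14 members had an unadjusted p below 0.05, all of them higher. At any fold, again a rule applied after the values had been seen, 4 members were up (0.605% of all genes) and 0 down (0.670%): Ctsa, Ctsd, Hexa and Grn. Ctsa was 64.9, 67.7, 78.5 and 81.3 CPM without DOX and 118, 124, 125 and 125 CPM with it (0.74 ± 0.07, adjusted p = 2.7e-05), Hexa 30.1, 30.9, 26.9 and 25.9 CPM against 57.9, 60.3, 39.3 and 40.8 (0.79 ± 0.13, adjusted p = 0.00166). Neither overlapped. Ctsd was 153, 157, 149 and 163 CPM against 212, 213, 212 and 214 (0.44, adjusted p = 0.000371). Psap was 482, 492, 407 and 424 CPM against 679, 617, 658 and 659 (0.52 ± 0.13, adjusted p = 0.0333), higher with DOX, in contrast to its values in LSD1Res. With the replicate number as a block, 0 members were called (1.34% of all genes), and 10 were up and 1 down at any fold, the last being Manba (-0.54 ± 0.07, adjusted p = 0.000349), with Psap at 0.53 ± 0.07 (adjusted p = 0.0012).

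LSD1 KO ESCs without the transgene served as the control for DOX itself. No member was called there by edgeR, where 0.0178% of all genes were called either way, and DESeq2 called 0. At an unadjusted p below 0.05 there were 12 members, all higher, and the median log2 fold change was 0.24, beside 0.02 over all genes. Hexa was 38.9 and 43.2 CPM without DOX and 55.6 and 75 CPM with it (0.57, adjusted p = 0.404), Ctsd 130 and 128 CPM against 152 and 180 (0.27, adjusted p = 0.415), and Ctsa 66.4 and 69 CPM against 80.7 and 73. Ctsb had the smallest adjusted p (0.30, adjusted p = 0.359), and Psap was 435 and 422 against 499 and 546 CPM (0.19, adjusted p = 0.943). The difference between the responses of LSD1Res and LSD1 KO, tested as an interaction, called no member (0.0178% of all genes by edgeR). DESeq2 called 0, 8 members had an unadjusted p below 0.05, and Hexa differed by 0.43 ± 0.22 (adjusted p = 0.483). With the replicate number as a block, this interaction called 1 member, as lower, and none as higher.

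**Figure D4:**
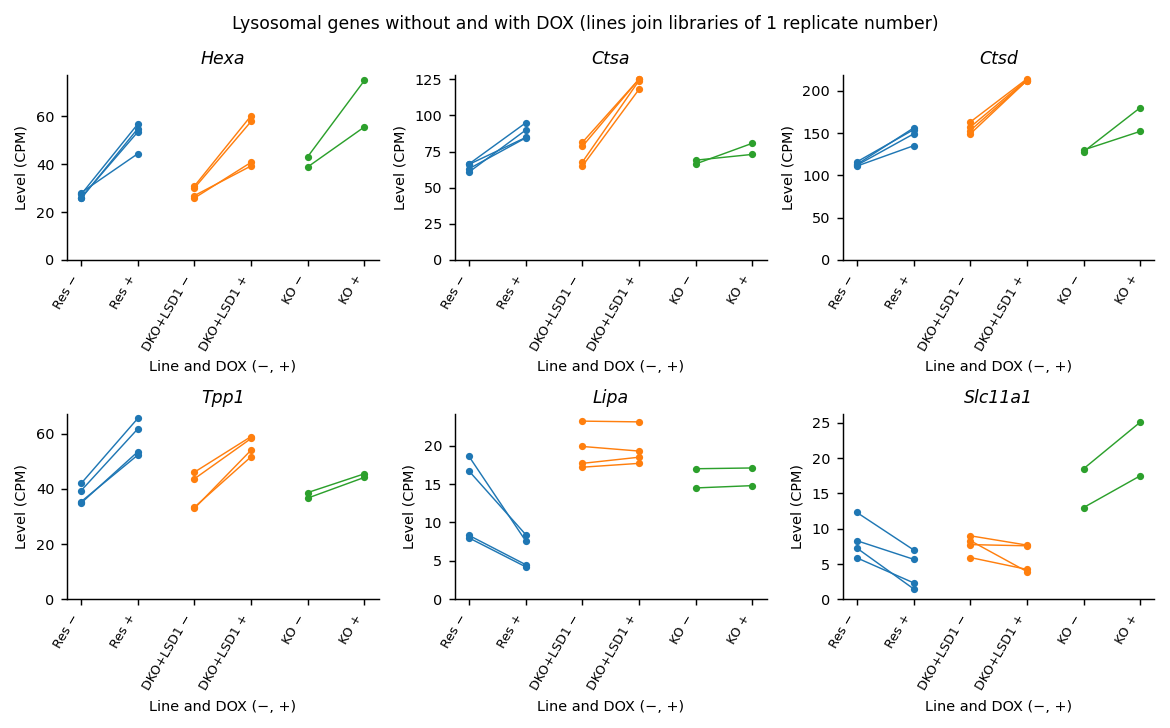
Level in CPM of 6 members without and with DOX in LSD1Res, DKO + LSD1 and LSD1 KO ESCs, with lines joining libraries of the same replicate number. Hexa, Ctsa, Ctsd and Tpp1 are higher with DOX in all pairs of the transgenic lines and in both LSD1 KO pairs, and Lipa is lower with DOX in LSD1Res and not in DKO + LSD1.

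After 4 days in serum, LSD1 KO cells had 3 members called up (6.22% of all genes) and 1 down (3.34%), and Psap rose by 1.15 ± 0.08 (adjusted p = 3.47e-06) with 270 and 230 CPM against 114 and 111. Glb1 was 43.1 and 35.7 CPM against 18.5 and 16.6 in WT and rose by 1.16 ± 0.13 (adjusted p = 5.51e-05). Slc11a1 had 145 and 91 counts against 8 and 2 and rose by 4.50 ± 0.60 (adjusted p = 0.000205). Manba rose by 1.14 ± 0.27 (adjusted p = 0.00857) with 16.7 and 10.2 CPM against 7.28 and 4.92, but not without LSD1 KO library 1 (0.74) or WT library 2 (0.86). Arsa was 3.88 and 5.37 CPM against 11.4 and 11 and fell by 1.29 on the log2 scale (adjusted p = 0.000624), a call lost without LSD1 KO library 1 (-1.07). Cd63 (0.82, adjusted p = 0.00038) and Ctsd (0.51, adjusted p = 0.000952) were higher at any fold, and Lamp1 (0.29), Ctsl (-0.21), Ctsb (0.36) and Lamp2 (-0.13) did not pass. Of 8 ESC markers 6 were called up, with a sum of 1038 to 1171 CPM against 661 to 672 in WT, and of 7 tested trophoblast markers 5 were called up (113 to 135 against 20.9 to 21.1 CPM). Their part in the member values was not tested.

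LSD1 CI cells in serum had no member called by edgeR, where 2.99% of all genes were called either way, although 16 members had an unadjusted p below 0.05, of which 9 were higher. DESeq2 called 2, Naglu as lower and Slc11a1 as higher. Slc11a1 had 20 and 46 counts against 8 and 2 in WT (2.52 ± 0.63, adjusted p = 0.0178), and Naglu was 0.87 and 1.72 against 3.49 and 4.07 CPM (-1.51 ± 0.36, adjusted p = 0.0145). Psap was 162 and 174 CPM (0.61 ± 0.08, adjusted p = 0.0006), and Ctsb (0.54, adjusted p = 0.00391) and Ctsd (0.39, adjusted p = 0.00911) were also higher at any fold. There 3 of 8 ESC and 5 of 7 trophoblast markers were called up, and their part was not tested.

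In EpiLCs, LSD1 KO had 3 members called up (6.82% of all genes) and 0 down (2.66%), with Psap at 196 and 200 against 117 and 111 CPM (0.75 ± 0.05, adjusted p = 8.37e-08). DESeq2 called the same 3 and no member down, and 24 members had an unadjusted p below 0.05, of which 17 were higher. Cd63 was 56.8 and 57.8 CPM against 25.4 and 18.4 and rose by 1.35 ± 0.12 (adjusted p = 1.86e-06). Slc11a1 was 4.35 and 6.11 CPM against 1.19 and 0.535 and rose by 2.60 ± 0.38 (adjusted p = 8.63e-05). Naglu was 1.72 and 1.11 CPM against 0.324 and 0.597 and rose by 1.53 ± 0.41 (adjusted p = 0.0086), but not without LSD1 KO library 1 (1.21) or WT library 1 (1.16). Lamp1 (0.41, adjusted p = 4.97e-06), Ctsd (0.43, adjusted p = 0.000212) and Ctsl (0.36, adjusted p = 0.00368) were higher at any fold. Of 8 ESC markers 7 were called up (947 to 978 against 549 to 611 CPM), with 3 of 8 trophoblast and 3 of 9 endoderm markers. What these markers contributed was not tested.

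LSD1 CI EpiLCs had 1 member called up (1.61% of all genes) and 1 down (0.538%), and Psap differed by 0.16 (adjusted p = 0.0672). Slc11a1 was 2.6 and 3.77 CPM and rose by 1.94 ± 0.38 (adjusted p = 0.00364), and Lipa was 3.09 and 3.68 CPM against 6.34 and 7.91 and fell by 1.06 on the log2 scale (adjusted p = 0.000863). Each call rested on single libraries: that of Slc11a1 was lost without LSD1 CI library 2 (1.64) or WT library 2 (1.46), and that of Lipa without LSD1 CI library 1 (-0.94) or WT library 2 (-0.87). Cd63 was 39.1 and 46.5 CPM (0.99 ± 0.12, adjusted p = 0.000193), just under the threshold, and was called without LSD1 CI library 1 (1.11) or WT library 1 (1.22).

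In ESCs lacking LSD1, A485 called 3 members up (5.94% of all genes) and 2 down (11.7%), and Psap went from 532 and 519 CPM to 384 and 392 (-0.50 ± 0.06, adjusted p = 1.67e-06). Arsb was 1.03 and 0.507 CPM in DMSO and 4.28 and 3.42 in A485 and rose by 2.25 ± 0.31 (adjusted p = 4.87e-06). Smpd1 was 8.4 and 5.63 against 18.8 and 15.4 CPM and rose by 1.22 ± 0.16 (adjusted p = 7.42e-06), and Naglu 3.05 and 2.77 against 6.06 and 6.22 CPM and rose by 1.02 ± 0.19 (adjusted p = 0.00016). Gaa was 109 and 102 against 55.6 and 53.3 CPM and fell by 1.01 on the log2 scale (adjusted p = 2.08e-10), and Arsa 16.2 and 13.4 against 7.66 and 7.1 CPM and fell by 1.07 (adjusted p = 1.72e-06).

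All but Arsb lay close to the fold threshold. Smpd1 lost its call without DMSO library 2 (0.99), Naglu without DMSO library 2 or A485 library 2 (0.98 each), and Arsa (-0.94) and Gaa (-0.97) without DMSO library 1. Slc11a1 (-0.73, adjusted p = 5.41e-06), Lamp1 (0.35, adjusted p = 9.39e-05), Ctsd (-0.34, adjusted p = 0.00015), Ctsb (-0.16), Ctsl (-0.14), Cd63 (0.02) and Lamp2 (0.01) were not called. ESC markers summed to 1509 and 1510 CPM in A485 against 3956 and 4034 in DMSO, and their part in the member values was not tested.

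Smpd1 and Naglu rose with A485 in 3 of 4 settings, the exception being EBs, which received a lower dose than ESCs. In serum, 3 members were called up (3.52% of all genes) and 0 down (9.0%), and DESeq2 called the same 3, with 16 members at an unadjusted p below 0.05, of which 14 were higher. Smpd1 was 7.66 and 8.08 CPM in DMSO and 22.9 and 24.3 in A485 and rose by 1.5 ± 0.19 (adjusted p = 8.64e-05). Sgsh was 3.35 and 4.81 against 8.34 and 9.65 CPM and rose by 1.06 ± 0.23 (adjusted p = 0.0031), and Naglu 1.51 and 2.84 against 5.66 and 6.16 CPM and rose by 1.37 ± 0.35 (adjusted p = 0.00757). The calls of Sgsh and Naglu did not hold without A485 library 1 (1.15 and 1.42), A485 library 2 (0.97 and 1.32) or DMSO library 1 (0.81 and 0.97). Psap was not called (-0.04, adjusted p = 0.694). A485 called 5 of 8 ESC, 5 of 7 trophoblast and 4 of 9 endoderm markers down there and 1 trophoblast marker up. Their part in the member values was not tested.

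In EpiLCs, A485 raised 5 members (7.43% of all genes) and lowered 0 (10.2%), where DESeq2 called the same 5 and 24 members had an unadjusted p below 0.05, of which 18 were higher. Smpd1 was 4.9 and 5.19 CPM in DMSO and 14.1 and 19.8 in A485 and rose by 1.64 ± 0.19 (adjusted p = 2.84e-06), Sgsh 2.48 and 2.85 against 8.52 and 9.62 CPM and rose by 1.65 ± 0.21 (adjusted p = 9.45e-06), and Lipa 11.9 and 10 against 26.3 and 27 CPM and rose by 1.18 ± 0.15 (adjusted p = 9.24e-06). These groups did not overlap. Naglu rose by 1.69 ± 0.36 (adjusted p = 0.000867) and Arsb by 1.42 ± 0.34 (adjusted p = 0.00212), but Naglu not without A485 library 2 (1.5) or DMSO library 2 (1.41), and Arsb not without A485 library 1 (1.25) or DMSO library 2 (1.19). Ctsb (0.82, adjusted p = 1.08e-07) was higher at any fold, and Psap differed by 0.15 (adjusted p = 0.0297). Of 8 ESC markers 3 were called down, and their part was not tested.

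In LSD1 KO EBs, A485 called 2 members up (4.26% of all genes) and 1 down (9.54%), and Smpd1 was not among them, with 14 and 14.5 CPM in DMSO and 9.85 and 7.97 in A485 (-0.58, adjusted p = 0.0195). Manba was 22.2 and 23.1 against 71.2 and 67 CPM and rose by 1.70 ± 0.17 (adjusted p = 1.16e-05). Slc11a1 had 40 and 28 counts in DMSO and 214 and 253 in A485 and rose by 2.94 ± 0.42 (adjusted p = 0.000241). Ctsh was 2.86 and 2.25 against 1.01 and 0.421 CPM and fell by 1.80 on the log2 scale (adjusted p = 0.00289), but not without A485 library 2 (-1.24) or DMSO library 1 (-1.62). With ESC markers at 1377 to 1395 CPM in A485 against 575 to 614 in DMSO, the 3 called members moved together with a marker list whose part was not tested. Psap was 199 and 211 CPM (0.06, adjusted p = 0.70).

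**Figure D5:**
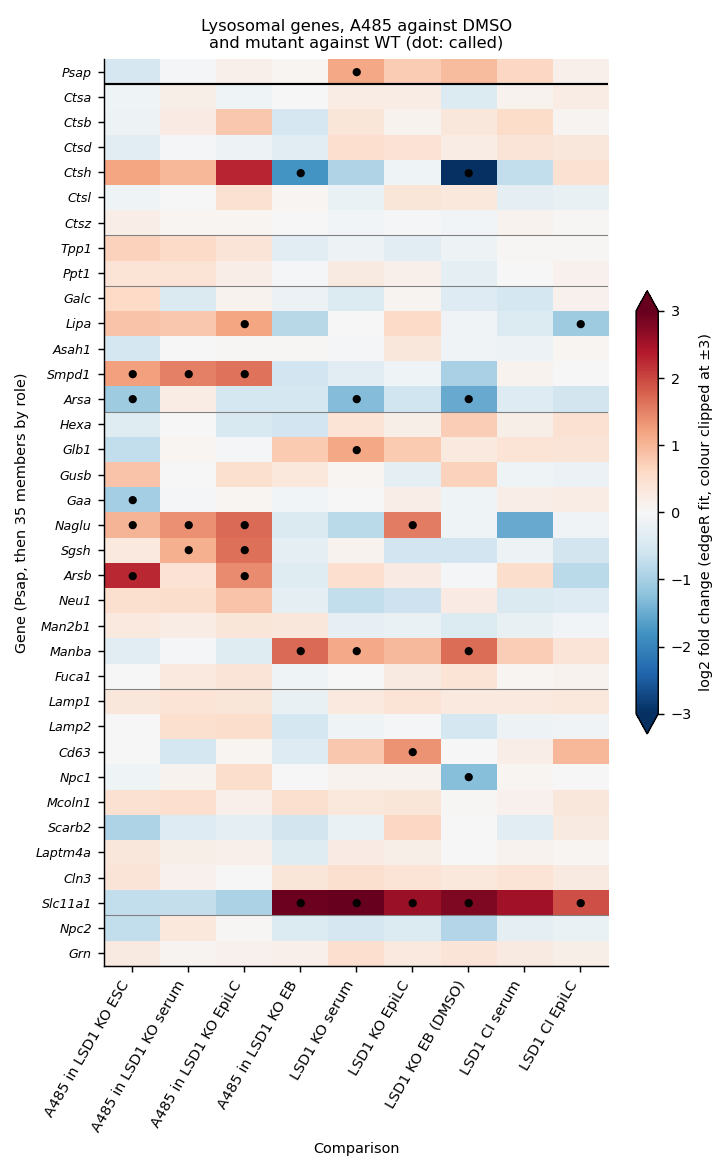
Log2 fold change of Psap and the 35 members for A485 against DMSO in LSD1 KO cells of 4 settings, for LSD1 KO against WT in serum, EpiLCs and EBs with DMSO, and for LSD1 CI against WT in serum and EpiLCs (colour scale ending at 3 in either direction, dots mark called values). Smpd1 and Naglu are called up by A485 in ESCs, serum and EpiLCs, and Slc11a1 is called up in LSD1 KO in all 3 settings.

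Over the 31 comparisons, 24 of 35 members were called at least once and 11 never: Ctsa, Ctsd, Ppt1, Asah1, Gusb, Man2b1, Fuca1, Lamp1, Lamp2, Mcoln1 and Cln3. Slc11a1 was called in 15 comparisons (12 up), Lipa in 11 (8 up), Arsa in 10 (0 up), Manba in 9 (8 up), and Ctsh (1 up) and Sgsh (4 up) in 7 each. Because many comparisons share control libraries, these numbers are a tally and not a count of independent events.

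Few genes outside the member list that serve the lysosome were called in LSD1 KO or RCOR1/2 DKO ESCs, and those went both ways. Their counts stand beside the shares of all genes given above for the same comparisons. Of 16 genes of the V-ATPase, the proton pump that acidifies lysosomes, 0 were called in LSD1 KO or RCOR1/2 DKO ESCs or between WT EBs and ESCs. In LSD1 KO ESCs, 0 of 23 further hydrolases were called up and 1 down (Galns, -1.01 ± 0.20), 0 of 6 sorting genes up and 1 down (Sort1, the sorting receptor sortilin, -1.17), 0 of 12 Ragulator and Rag genes either way, and 1 of 15 autophagy genes up and 2 down. Those were Gabarapl2 (2.21 ± 0.21), Wipi1 (-1.28) and Atg9a (-1.40). RCOR1/2 DKO ESCs had values of 2.12 for Gabarapl2, -1.60 for Wipi1, -1.70 for Atg9a and -1.26 for Sort1, and 1 of 23 further hydrolases was called up (Acp5, 1.23) and 2 down. Sort1 (-1.32) was called in RCOR2 KO ESCs too. In LSD1 KO EpiLCs, A485 called up 2 of 22 tested further hydrolases and 4 of 15 autophagy genes. It also called up 1 of 16 V-ATPase genes and 1 of 6 sorting genes. These lists had 0 genes called down there, while of 12 Ragulator and Rag genes 0 were called up and 1 down. Their relation to the member values was not tested.

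Tfeb was called down in untreated LSD1 KO and RCOR1/2 DKO cells of the ESC stage and up in LSD1 KO and LSD1 CI serum cells. In ESCs it was 29.4 to 62.9 CPM in WT ESCs and 12.1 to 17.2 CPM in LSD1 KO, without overlap, and fell by 1.91 on the log2 scale (SE 0.16, adjusted p = 4.2e-12). In RCOR1/2 DKO it was 16.5 to 18.5 CPM (-1.23 ± 0.16). RCOR2 KO ESCs, in which Psap also rose, had 31.6 to 32.1 CPM of Tfeb, inside the WT range, and MLL4/LSD1 DKO ESCs had 28.7 to 35.8 CPM (-0.25, adjusted p = 0.195). In serum Tfeb rose by 2.24 ± 0.27 (adjusted p = 0.000115) in LSD1 KO and by 1.58 ± 0.27 (adjusted p = 0.00261) in LSD1 CI cells, and in LSD1 KO EpiLCs it was higher by 0.83 ± 0.21 (adjusted p = 0.00637) without being called. Levels in EBs were low, 2.79 to 4.89 CPM in RCOR1/2 DKO and 1.3 to 5.39 in WT. With A485, Tfeb was 12.5 to 13.2 CPM against 24.9 to 26 in DMSO in ESCs, and 3.12 to 3.26 against 11.2 to 16.4 in serum. In EBs Tfeb was 4.87 to 5.93 CPM with A485 against 2.27 to 2.58, and in EpiLCs the ranges overlapped. Of the related factors, Tfe3 was 83.5 to 98.3 CPM in LSD1 KO and 80.4 to 114 in RCOR1/2 DKO EBs against 35.4 to 56.5 in WT EBs. Mitf was 59.1 to 105 CPM in WT ESCs and 3.28 to 6 in WT EBs. With A485, Mitf was 13.1 to 14.9 CPM against 76.5 to 82.6 in DMSO in LSD1 KO ESCs. In LSD1 KO EpiLCs it was higher with A485, 3.64 to 4.06 CPM against 0.797 to 1.38. Gm2a, the activator protein that works beside Hexa, was 52.6 to 64.5 CPM in LSD1 KO and 23.2 to 42.8 CPM in WT ESCs. RNA of the MiT/TFE factors does not report the location or activity of their proteins, and whether they bear on the members was not tested.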

How the data were processed

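Ribosomal RNA-depleted, strand-specific RNA was sequenced in 112 libraries. The authors trimmed reads with Trim Galore, aligned them to mm9 with STAR 2.7.9a, removed duplicates with Picard 2.25.5 and counted reverse-stranded reads per gene with featureCounts. The deposited values are raw counts of 25209 genes, 17.2 to 58.2 M per library (median 39.0), and Rn45s took 8.06 to 24.9% of them. Of the low counts of a library 72.2 to 84.7% were even, which is why halved counts were one alternative. Precision was limited by the number of libraries, 2 to 11 per group, and by depth for members below about 1 CPM.

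Groups came from the sample labels. Counts were fitted with edgeR 4.0.16 (R 4.3.3, limma 3.58.1; TMM scaling, filterByExpr, robust quasi-likelihood test) over all genes that passed the filter, with Benjamini-Hochberg adjustment over all of them. All 35 members passed the filter in every fit. SE was taken as the log2 fold change over the root of F. Called means an adjusted p below 0.01 and a log2 fold change above 1 in size. Untreated ESC fits carried a term for the 101 genes without counts in 9 libraries. CPM used library totals, and RPKM used gene lengths for levels between genes. DESeq2 1.42.0, size factors, no filter, Rn45s left out, halved counts, other sample sets, each library left out and a replicate block were alternatives.

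Named were every called member, up to 4 further members of smallest adjusted p, and Slc11a1, Ctsl, Lamp1, Lamp2, Ctsb, Ctsd and Cd63 in the main comparisons. The members, lists and rules were chosen with earlier results of these data known. Same-numbered libraries paired in LSD1Res (correlations of deviations 0.519 to 0.574) and DKO + LSD1 (0.456 to 0.542), a pairing read from the data, not the labels. On simulated data made from the LSD1 KO ESC fit (17603 genes), the test called 91% of the genes given a 3-fold difference and 94% at 6-fold, against 77% and 83% from the LSD1 KO EB fit (17928 genes), with 1 false call each. Only genes with a mean above 1 CPM were given a difference, so these shares do not cover members below that level. The simulated data held no other effect of group or alignment. Promoter motifs were searched in RefSeq sequences of GRCm38.p6, a build other than that of the counts.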

Additional observations from a re-analysis of the deposited data

Results flagged for a closer look

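In groups of 4 to 10 libraries, 2 values lay apart from the others of their group by Dixon's criterion: Ctsz in RCOR1/2 DKO ESC library 2 (13.6 CPM, a gap of 0.975 of the range) and Ctsh in WT EB library 3 (59.9 CPM, 0.722). Chance gives about 1 in 20 of the 51 groups tested.

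The response to LSD1 loss differed between EBs and ESCs, by the interaction in edgeR's test, for Ctsb (1.01, adjusted p = 6.96e-05), Neu1 (1.24, adjusted p = 0.000165), Manba (1.63, adjusted p = 0.000793), Npc2 (-1.26, adjusted p = 1.32e-06), Ctsl (-1.16, adjusted p = 0.00245) and Lipa (-1.69, adjusted p = 0.0024). Ctsb lost this call without the alignment term (0.83) and with DESeq2 (0.94), and Lipa without the alignment term (-0.93).

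The response to loss of RCOR1 and RCOR2 differed in the same test for Slc11a1 (2.27, adjusted p = 0.00182), Manba (1.79, adjusted p = 2.12e-05), Neu1 (1.2, adjusted p = 1.8e-05), Hexa (1.10, adjusted p = 0.00015), Ctsh (-4.09, adjusted p = 0.000344), Lipa (-2.0, adjusted p = 9.94e-06), Arsb (-1.63, adjusted p = 0.00191), Npc1 (-1.10, adjusted p = 2.23e-07) and Sgsh (-1.13, adjusted p = 0.00873). Arsb lost its call without the alignment term (-1.23).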

How the results depend on the processing

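Of 373 recomputed counts of called members, 327 stayed within 1.5 times the reported count and 46 did not, and of 3600 recomputed member values 3466 kept their direction and call, 102 lost the call, 31 gained one and 1 turned: Cd63 in MLL4KO/LSD1CI ESCs, 0.05 with a replicate block. Counts moved as follows, the cause was not tested. LSD1 CI ESCs went from 1 to 0 with WT of one alignment, the compared groups only or the block. RCOR2 KO ESCs went from 1 to 2 with one alignment, the compared groups only or no alignment term. With the replicate block, RCOR1/2 DKO ESCs went from 6 to 3, MLL4/LSD1 DKO from 4 to 1, MLL4KO/LSD1CI from 3 to 0, RCOR2 KO EBs from 2 to 1, LSD1Res from 0 to 2, and LSD1 KO with DOX, the DOX interaction and LSD1 CI in serum each from 0 to 1. MLL4 KO went from 4 to 2 with one alignment or the compared groups only, and RCOR2 KO EBs from 2 to 0 with the compared groups only. LSD1Res went from 0 to 1 with DESeq2, its size factors, the compared groups only, halved counts, no filter or without Rn45s, and LSD1 CI in serum from 0 to 2 with DESeq2 or no filter. Outside the DOX lines the numbers did not pair the libraries (LSD1 KO ESCs, correlations of -0.068 to 0.106). Leaving out 1 library gave 0 to 1 called members in LSD1 CI ESCs, 1 to 3 in RCOR2 KO, 1 to 3 in MLL4 KO, 4 to 5 in MLL4/LSD1 DKO, 2 to 4 against MLL4 KO, 1 to 2 in LSD1 KO EBs, 0 in RCOR2 KO EBs, 0 to 2 in LSD1Res, 3 to 4 and 8 to 9 in the LSD1 KO and RCOR1/2 DKO interactions, 4 to 5 in LSD1 KO EBs with DMSO, 2 to 4 in LSD1 KO serum cells and 0 to 3 in LSD1 CI EpiLCs. For A485 it gave 3 to 5 in ESCs, 2 to 3 in EBs, 1 to 3 in serum and 4 to 5 in EpiLCs. A fit of the compared groups only was not run for LSD1 KO against LSD1 CI. Members below about 1 CPM were limited by depth.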
